A study of Mus musculus with 26 samples.

Results

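The colon of mice on the GW3965 diet was compared between day 43 and day 22 of AOM–DSS. The members are the 6 samples whose titles place them on this diet at day 22 or day 43, 3 at each day, of 26 samples in the series. GW3965 is a synthetic agonist of liver X receptor (LXR) supplied in the feed. The carcinogen AOM was injected once at 10 mg per kg, and DSS, given in the drinking water for 7 days at a time, injures the colonic epithelium, so that repeated cycles of injury and repair lead to colon tumours. By the dosing schedule of the labels, day 22 fell after the first DSS cycle and day 43 after the second. All 6 samples came from wild-type C57BL/6J males from Taconic, about 10 weeks old at the start, that shared cage B. RNA was taken from biopsies of the distal colon. For context, levels are also given for 4 samples of mice on the GW3965 diet without AOM or DSS (cage F), for 3 samples of day 70 of AOM–DSS on GW3965 (1 cage each), and for 3 samples at day 22 and 3 at day 43 of AOM–DSS on the standard diet (cage A). One of the 4 controls carries a diet label that conflicts with its title. The labels number the replicates. The study's own notes describe the bulk samples both as a few mice per time point and as pools of a few biological replicates, so that whether a sample is 1 mouse or a pool is not settled, and P values measure the spread between these samples.

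The lining of the colon is a single layer of columnar cells, mainly absorptive colonocytes and mucus-secreting goblet cells, built on keratins 8, 18, 19 and 20. Stratified squamous epithelium, as in skin, oesophagus and the anal canal, is instead a pile of cell layers in which Trp63 (the transcription factor p63) marks the basal layer together with keratins 5 and 14, and other keratin pairs mark the layers above it. LXR is a nuclear receptor that is activated by oxysterols and induces genes of cholesterol efflux and lipid synthesis. RNA of a biopsy sums over all of its cells, so that fewer cells of a type and less RNA per cell cannot be told apart.

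Total counts of the 6 samples ran from 18420894 to 25358377. RNA integrity numbers (lower means more degraded RNA) were 9.6, 9.3 and 9.1 at day 22 and 8, 6.8 and 9.3 at day 43 (P = 0.3 by an exact permutation test, two-sided, where 3 samples against 3 allow no P below 0.1). The ribosomal percentage, the share of counts on 88 ribosomal protein genes, was 6.67%, 7.2% and 10.7% at day 22 and 13.1%, 17.6% and 10.0% at day 43 (exact permutation P = 0.2). Day 43 replicate 2 had the lowest integrity and the highest ribosomal percentage of the 6. The test therefore held the ribosomal percentage as a covariate, and the fitted log2 fold changes compare the days at an equal ribosomal percentage. Values per sample are counts scaled to library size (CPM) without that correction. Krt8, a keratin of columnar cells, and Hoxb13, a homeobox gene of the hindgut, were present in every sample. Krt8 had 2657 to 3257 CPM at day 22 and 1711 to 2589 CPM at day 43, and Hoxb13 199 to 253 CPM and 177 to 270 CPM.

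At a false discovery rate of 0.05, 25 of 17063 genes tested (0.147%) passed between day 43 and day 22, of which 24 (0.141%) were higher and 1 (0.00586%) was lower at day 43. Of the 24, 8 were among the 22 tested members of a list of stratified epithelium genes: the basal genes Trp63, Krt5, Krt14 and Krt15, the suprabasal keratins Krt13, Krt4 and Krt6b, and galectin-7 (Lgals7). Outside that list were Psca, a lipid-anchored surface protein, Aqp3, a water and glycerol channel, and Fat2, an atypical cadherin. Tmprss11b and Tmprss11g are membrane serine proteases of 1 family, Alox12 is an arachidonate lipoxygenase, and S100a7a is an antimicrobial S100 protein of skin. The lower gene was Ccl24, the eosinophil-attracting chemokine eotaxin-2. For all 25 the 3 samples of one day lay apart from the 3 of the other, as they did for 2071 genes (12.1%) that were higher and 2409 (14.1%) that were lower at day 43. The 25 adjusted P values ran from 0.0449 to 0.0499, close to the threshold, and no gene passed when any 1 of the 6 samples was left out, although all 25 then kept their direction and an unadjusted P under 0.05 (edgeR's quasi-likelihood test, with 479 to 903 genes at an unadjusted P under 0.05). Leaving out replicate 1 of day 43 of the standard diet or the control of conflicting label also left no gene (1385 and 906 at an unadjusted P under 0.05). No gene passed in a fit of the 13 GW3965 samples alone (1218 at an unadjusted P under 0.05) or with limma voom (722), whereas all 25 were among the 118 genes (0.692%) that DESeq2 called.

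**Figure D1:**
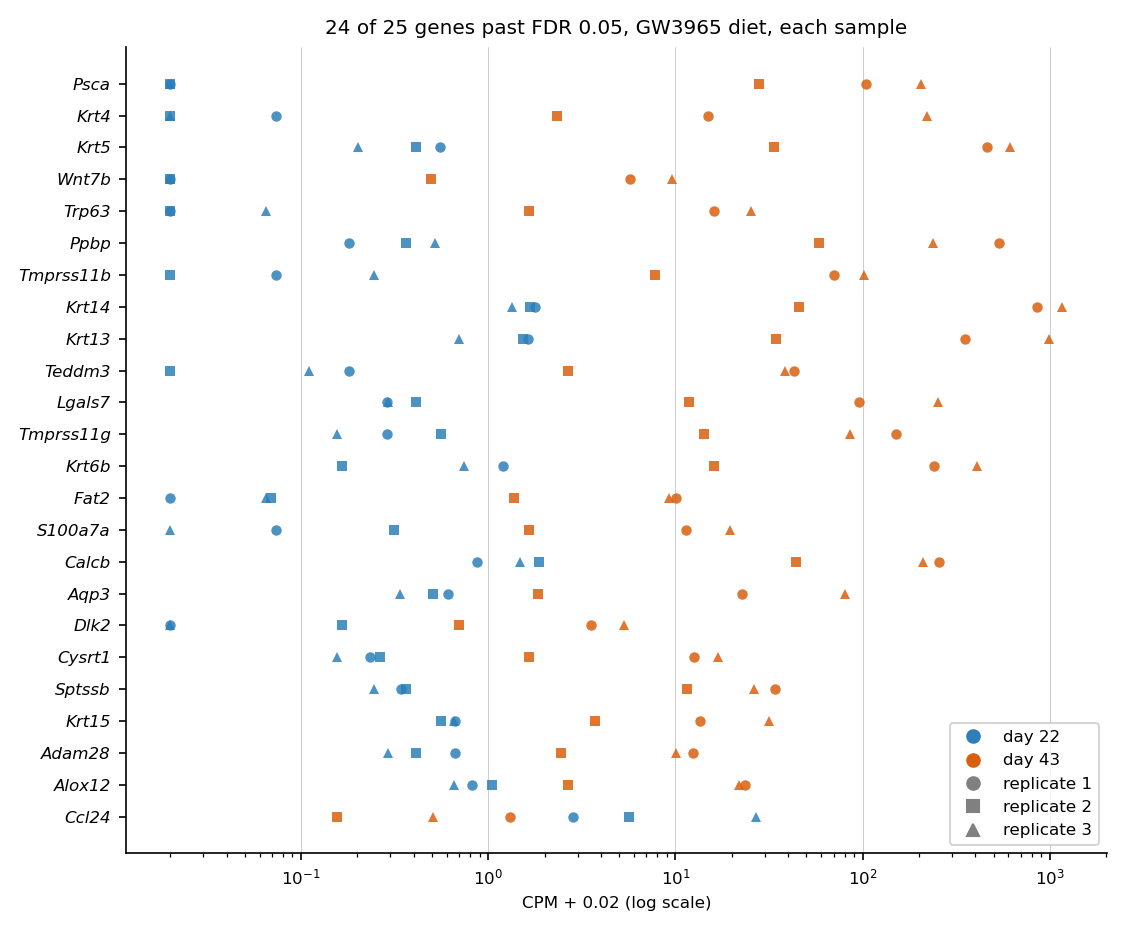
CPM plus 0.02 (horizontal, log scale) of 24 of the 25 genes with a false discovery rate under 0.05, one row per gene. Blue points are the 3 day 22 samples and orange points the 3 day 43 samples, with a symbol for each replicate number. Day 43 lies to the right of day 22 in every row but that of Ccl24, and day 43 replicate 2 (orange squares) is the lowest of the day 43 samples for the higher genes shown.

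Krt14 and Krt5 form the keratin pair of basal cells. Krt14 (ENSMUSG00000045545.8, chromosome 11, 100203162 to 100207548 in GRCm38) had 1.76, 1.66 and 1.31 CPM at day 22 and 848, 45.9 and 1166 CPM at day 43. The lowest day 43 sample was therefore far above the highest of day 22, while the day 43 samples themselves were spread over a wide range. Its log2 fold change was 9.93 (SE 1.75, adjusted P = 0.0449). Krt5 (ENSMUSG00000061527.7, chromosome 15, 101707070 to 101712898) had 0.535, 0.390 and 0.181 CPM at day 22 and 461, 33.5 and 610 CPM at day 43, with a log2 fold change of 11.42 (SE 2.05, adjusted P = 0.0449). Both keratins thus followed the same order of samples at day 43, with replicate 3 the highest and replicate 2 the lowest. Trp63 had 1 count over the 3 day 22 samples and 16.1, 1.62 and 25.4 CPM at day 43, a ratio of 881 with a 95% counting interval of 158 to 34803. Dsg3, the desmosomal cadherin of basal layers, did not pass (adjusted P = 0.0804), with 0.642, 0.146 and 0.680 CPM at day 22 and 29.0, 3.31 and 41.0 CPM at day 43.

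Krt13 and Krt4 form the pair of the upper layers of moist, non-keratinized epithelia such as that of the oesophagus. Krt13 (ENSMUSG00000044041.4, chromosome 11, 100117327 to 100121566) had 1.60, 1.51 and 0.680 CPM at day 22 and 352, 34.6 and 989 CPM at day 43, a log2 fold change of 9.86 (SE 1.81, adjusted P = 0.0449). Krt4 had 1 count at day 22 and 15, 2.30 and 221 CPM at day 43, a ratio of 4863 with a 95% counting interval of 873 to 192068. Replicate 3 thus stood further above replicate 1 for Krt4 than for Krt14. The keratins of cornifying skin did not pass: Krt1 had 12.5, 1.89 and 58.7 CPM at day 43 against at most 0.107 CPM at day 22 (adjusted P = 0.271), and Krt10 had 65.6, 19.7 and 187 CPM against 4.81, 5.37 and 9.24 CPM (adjusted P = 0.598). Krt6b, which with Krt6a is known from wounded and hyperproliferative skin, had 241, 16.1 and 410 CPM at day 43 and 1.18, 0.146 and 0.725 CPM at day 22, and it passed (log2 fold change 9.45, SE 1.81, adjusted P = 0.0449). Krt6a missed the threshold (adjusted P = 0.0804) at 575, 41.6 and 887 CPM against 0.695, 0.195 and 0.544 CPM. None of the 5 genes of the cornified envelope and its precursors on the list passed. Sprr3 had no count at day 22 and 3.82, 0.812 and 71.4 CPM at day 43, while the others overlapped between the days. Sprr1a had 46.0, 16.2 and 47.0 CPM at day 22 and 66.7, 22.3 and 199 CPM at day 43, Lor (loricrin) 0.374, 0.146 and 0.951 CPM and 2.82, 0.947 and 18.2 CPM, Ivl (involucrin) at most 0.0906 CPM and 0.353, 0 and 1.08 CPM, and Lce3c was at 0 but for 6.47 CPM in replicate 3 of day 43.

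Over the 22 members of the list, 8 rose, none fell and the other 14 did not pass. All 22 had a log2 fold change above 0 (48.9% of all genes did). Of the 22, 18 were higher at day 43 without overlap, where 12.1% of all genes were. The list was written with earlier results of these data known. Members at or near 0 counts at day 22 passed the filter on low counts through other groups. They had little or no room to be lower at day 43, so these shares describe the list and are not a test of it. The median log2 fold change was 9.46, or 8.80 with the 2 members at 0 counts at day 22 set to their lower bound, against -0.01 over all genes tested. The summed level of the list was 64.6, 30.8 and 69.0 CPM at day 22 and 2957, 269 and 5688 CPM at day 43. In the 4 controls it was 14.2 to 23.7 CPM. In TPM, transcripts scaled for length and depth, which allow genes to be compared with each other, the 3 day 43 samples had 387, 18.1 and 705 TPM of Krt14, 193, 14.6 and 666 TPM of Krt13, 182, 10.3 and 381 TPM of Krt6a and 152, 8.65 and 273 TPM of Krt5. These 4 keratins stood in the same order in each of the 3 samples. Krtdap, a protein of differentiating keratinocytes, lay below all 4 in replicate 1 and above all 4 in replicates 2 and 3 (137.5, 19.8 and 1026 TPM), so that its place depended on the sample. Over the same samples the columnar Krt8 had 904 ± 409 TPM at day 43 and 1559 ± 410 TPM at day 22, and Krt20, a keratin of the colonic surface, 147 ± 48.7 TPM and 385 ± 120 TPM (SD, n = 3).

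Skeletal muscle genes moved with the keratins in 1 of the 3 day 43 samples. The 16 tested members of a skeletal muscle list summed to 32.9, 36.7 and 45.3 CPM at day 22 and to 37.9, 40.2 and 486 CPM at day 43. Replicate 3, the sample with the most keratin, was thus the one above the range of the controls (25.1 to 68.3 CPM). Of the 16, none passed, 15 had a log2 fold change above 0, with a median of 4.53 in a fit that holds replicate 3, and 3 were higher at day 43 without overlap, where 12.1% of all genes were. The oxygen carrier myoglobin (Mb) had 0.176, 0.0676 and 23.4 CPM at day 43 and the skeletal actin Acta1 5.64, 3.86 and 78.5 CPM, against 2.29 to 3.53 CPM of Acta1 at day 22. In replicates 1 and 2 the muscle sum lay within the range of the controls. There the stratified list summed to 2957 and 269 CPM, above the 30.8 to 69.0 CPM of day 22. The source of the muscle and keratin RNA was not tested. At day 70, replicates 1 and 3 had 37944 and 17023 CPM of the stratified list and replicate 2 had 29.6 CPM, while replicate 1 had 31535 CPM of the muscle list and the others 17.2 and 28.4 CPM.

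The promoter windows of Krt5, Krt13 and Aqp3, which are among the genes that rose, are shown as examples. They are RefSeq windows on GRCm38.p6 of 300 bases each, from 250 bases before to 50 bases after an annotated start, read 5′ to 3′ on the strand of the gene, which is the minus strand for all 3 (Krt5 chr15:101712856-101713155, Krt13 chr11:100121517-100121816 and Aqp3 chr4:41098134-41098433). Capitals mark matches to TGANTCA and to ATAAANGG, a run like the TATA box. Each was searched on both strands, with a palindromic match counted once. TGANTCA is looser than the AP-1 site, which has C or G at its centre. Krt13 has 2 windows, of which the more upstream one is printed. The only window of Krt14 lies inside the gene and not at its 5′ end. It held no match and is not printed.
Krt5: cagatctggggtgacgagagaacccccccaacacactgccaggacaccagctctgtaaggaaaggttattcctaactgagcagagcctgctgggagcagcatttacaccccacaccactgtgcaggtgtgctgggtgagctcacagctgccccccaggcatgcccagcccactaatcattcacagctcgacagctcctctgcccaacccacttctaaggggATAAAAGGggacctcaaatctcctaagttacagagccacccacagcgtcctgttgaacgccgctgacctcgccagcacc
Krt13: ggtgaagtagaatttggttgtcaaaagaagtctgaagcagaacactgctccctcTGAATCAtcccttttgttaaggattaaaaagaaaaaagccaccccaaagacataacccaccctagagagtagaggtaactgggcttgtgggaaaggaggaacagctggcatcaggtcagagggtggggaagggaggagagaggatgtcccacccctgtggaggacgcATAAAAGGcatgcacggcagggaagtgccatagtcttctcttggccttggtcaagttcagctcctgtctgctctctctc
Aqp3: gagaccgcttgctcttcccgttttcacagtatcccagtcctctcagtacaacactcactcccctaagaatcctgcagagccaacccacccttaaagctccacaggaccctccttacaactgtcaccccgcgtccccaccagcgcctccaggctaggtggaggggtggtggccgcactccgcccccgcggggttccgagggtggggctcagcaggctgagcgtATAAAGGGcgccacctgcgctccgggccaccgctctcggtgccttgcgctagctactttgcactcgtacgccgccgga
The windows of Krt5 and Krt13 both hold ATAAANGG with its first base 29 bases before the start, and that of Aqp3 at 28 bases before it. TGANTCA is in the Krt13 window, 196 bases before the start, with A at its centre and so not as the AP-1 site. Windows were found for 15 of the 25 genes that passed (17 windows), of which 5 windows held ATAAANGG and 4 held TGANTCA. Over all 32851 windows the shares were 3.65% and 7.81%. These are matches of letters, not binding sites.

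Psca had no count at day 22 and 104, 27.8 and 205 CPM at day 43, so that it was at least 2297-fold higher, from a floor of 3 counts over the day 22 group. It was also at 0 in all 4 controls. Wnt7b, a Wnt ligand, had no count at day 22 either and 5.70, 0.473 and 9.60 CPM at day 43, at least 107-fold higher. Both genes were lowest in replicate 2 among the day 43 samples. Aqp3 had 0.588, 0.488 and 0.317 CPM at day 22 and 22.6, 1.83 and 80.4 CPM at day 43 (log2 fold change 7.42, SE 1.35, adjusted P = 0.0449). Alox12 had 0.802, 1.02 and 0.634 CPM at day 22 and 23.6, 2.64 and 21.9 CPM at day 43, and it was the 1 called gene of 20 in a list of the prostaglandin and lipoxygenase pathway, whose median log2 fold change was 0.15. Fat2 rose from 2 counts in all at day 22 to 10.1, 1.35 and 9.21 CPM (ratio 210, 95% counting interval 58.3 to 1738). Tmprss11b reached 70.2, 7.71 and 102 CPM at day 43 from at most 0.227 CPM, Tmprss11g 150, 14.1 and 85.9 CPM from at most 0.537 CPM, and S100a7a 11.3, 1.62 and 19.6 CPM from at most 0.293 CPM.

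Of the 25, 12 (Krt4, Krt6b, Krt15, Lgals7, Wnt7b, Ppbp, Calcb, Sptssb, Cysrt1, Teddm3, Dlk2 and Adam28) lie outside the rule by which genes were named and were added after their values were seen, to complete the 25. Ppbp, the platelet-derived neutrophil chemokine CXCL7, had 0.160, 0.342 and 0.498 CPM at day 22 and 538, 58.6 and 238 CPM at day 43 (log2 fold change 11.04, SE 2.21, adjusted P = 0.0496). Calcb, which encodes the neuropeptide beta-CGRP, had 0.855, 1.85 and 1.45 CPM at day 22 and 256, 44.2 and 210 CPM at day 43 (log2 fold change 7.58, SE 1.45, adjusted P = 0.0449). Both were highest in replicate 1, unlike the keratins. Sptssb, a small subunit of the enzyme that starts sphingolipid synthesis, had 0.321, 0.342 and 0.227 CPM at day 22 and 34.0, 11.6 and 26.2 CPM at day 43, a narrower spread than that of the keratins (log2 fold change 6.63, SE 1.30, adjusted P = 0.0449). Cysrt1, Teddm3, Dlk2, Adam28 and Krt15 had 0.676 to 43.1 CPM over the day 43 samples, and Lgals7 had 95.1, 11.8 and 252 CPM against 0.267 to 0.390 CPM at day 22.

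Ccl24 (ENSMUSG00000004814.10, chromosome 5, 135569937 to 135573049) had 2.83, 5.66 and 27.0 CPM at day 22 and 1.29, 0.135 and 0.490 CPM at day 43. The days did not overlap, and replicate 3 of day 22 was far above the other day 22 samples. It fell by 4.84 on the log2 scale (SE 0.97, adjusted P = 0.0496). In the controls it had 0.491 to 2.21 CPM and at day 70 0.307 to 1.38 CPM. The next genes of lower level by P did not pass. Fam221a had 4.92, 15.5 and 17.7 CPM at day 22 and 3.53, 4.67 and 3.58 CPM at day 43 (adjusted P = 0.0674). Mcpt9 and Cma2 encode mast cell proteases: Mcpt9 had 0.535, 0.146 and 1.63 CPM at day 22 and at most 0.203 CPM at day 43 (adjusted P = 0.0804), and Cma2 1.55, 0.586 and 2.27 CPM and at most 0.271 CPM (adjusted P = 0.109). Mcpt1 and Mcpt2, the proteases of mucosal mast cells, pointed the same way without passing, Mcpt1 with 25.8, 10.0 and 45.3 CPM at day 22 and 3.41, 4.19 and 3.48 CPM at day 43 and Mcpt2 with 20.9, 6.78 and 42.1 CPM and 4.99, 4.87 and 3.13 CPM. Mcpt9 and Cma2 are not on the mast cell list. Of its 10 genes none passed, 7 had a log2 fold change below 0 and 3 above 0, and the median was -0.84. Lower at day 43 without overlap were 3 of the 10, against 14.1% of all genes.

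**Figure D2:**
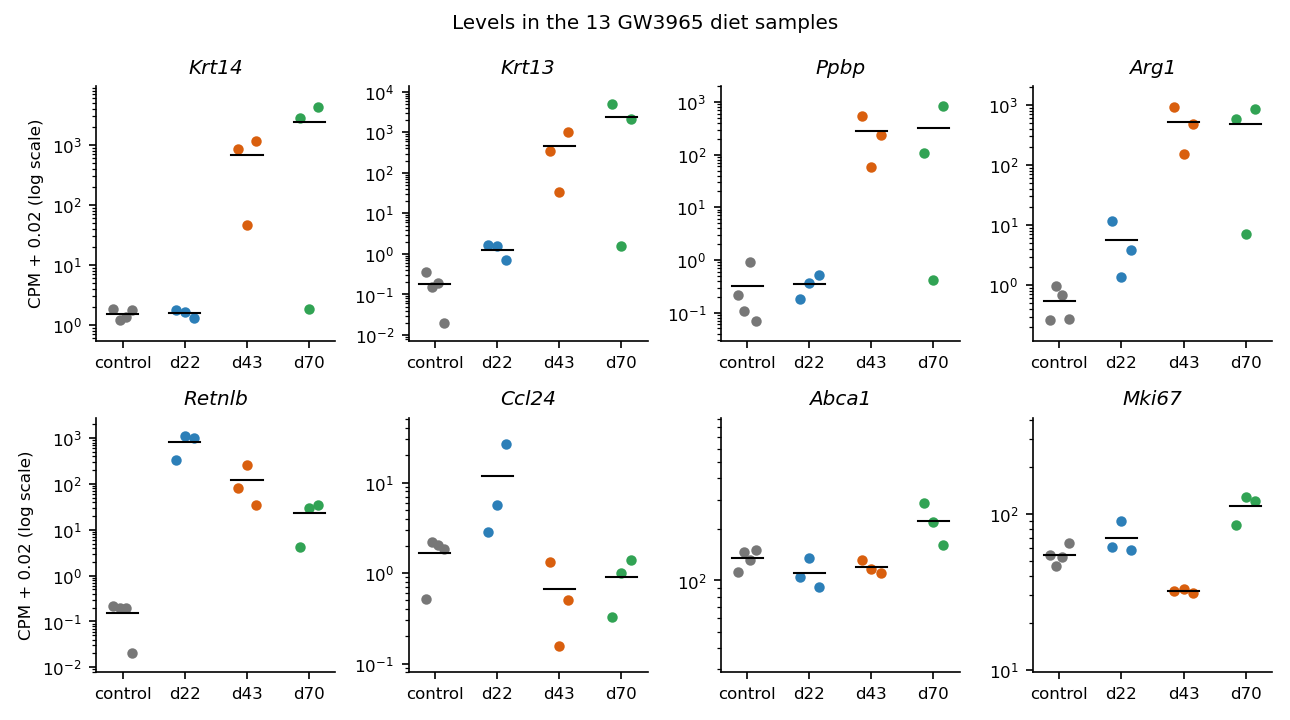
CPM plus 0.02 (vertical, log scale) of 8 genes in the 13 samples of the GW3965 diet: 4 controls without AOM or DSS, and 3 samples at each of days 22, 43 and 70. Points are samples and bars are means. Krt14, Krt13, Ppbp and Arg1 are high in all 3 day 43 samples and in 2 of the 3 day 70 samples, Retnlb and Ccl24 are highest at day 22, Abca1 at day 43 lies among its day 22 values, and Mki67 is lowest at day 43.

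A list of 20 genes of the fetal-like state, which colonic epithelium is known to enter after injury, held 1 gene that rose and 18 with a log2 fold change above 0, and its median was 1.21 with or 1.18 without the ribosomal term. Of the 20, 9 were higher at day 43 without overlap, where 12.1% of all genes were. Ly6d had 31.4, 46.6 and 55.6 CPM at day 22 and 439, 218 and 423 CPM at day 43 (adjusted P = 0.385), and Anxa1, which encodes the glucocorticoid-regulated annexin A1, 517, 310 and 378 CPM and 2581, 811 and 1623 CPM. The alarmin Il33 had 10.6, 9.17 and 10.4 CPM at day 22 and 58.8, 28.7 and 35.4 CPM at day 43, and the TWEAK receptor Tnfrsf12a 20.7, 18 and 22.1 CPM and 117, 58.0 and 90.1 CPM. None of these 4 passed, though for each the day 43 samples lay above all day 22 samples. On the 6 samples alone, with no covariate, Ly6d, Il33 and Tnfrsf12a were among 52 genes (0.334%) that passed, as was the neuropeptide gene Nts (0.342 to 0.695 CPM and 4.40 to 5.58 CPM). Only 11 of the 52 were among the 25. Arg1, the arginase of wound macrophages and also of squamous cells, had 11.8, 1.37 and 3.90 CPM at day 22 and 920, 151 and 478 CPM at day 43 and missed the threshold (adjusted P = 0.0712). It passed without the ribosomal term (adjusted P = 0.0482).

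Neutrophil genes were mostly higher at day 43, and none of the 19 tested passed. Of these, 17 had a log2 fold change above 0, with a median of 1.76 (2.44 without the ribosomal term). Of the 19, 12 were higher without overlap, where 12.1% of all genes were. S100a8 and S100a9, the calprotectin subunits, had 140, 35.8 and 176 CPM and 95.4, 25.9 and 150 CPM at day 22, and 1250, 783 and 308 CPM and 1525, 524 and 307 CPM at day 43. Here replicate 1 was the highest of day 43 and replicate 3 the lowest. Ltf, the iron-binding lactoferrin of neutrophil granules, had 38.2, 10.1 and 22.9 CPM at day 22 and 456, 81.1 and 210 CPM at day 43 (adjusted P = 0.420), and Cxcl5, a neutrophil chemokine, 57.3, 37.8 and 135 CPM and 813, 205 and 202 CPM. Cxcl1, another, overlapped between the days at 13.2, 5.71 and 54.2 CPM and 30.8, 31.9 and 3.28 CPM. Csf3, the cytokine that mobilizes neutrophils, had 0.214, 0 and 0.680 CPM at day 22 and 23.2, 7.71 and 2.60 CPM at day 43 (adjusted P = 0.514). The macrophage list of 20 had a median of 0.22 and no gene that passed, and Cd68 had 19.8 to 28.7 CPM and 26.7 to 28.8 CPM.

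Antibody genes depended on the ribosomal term. None of the 17 plasma cell genes passed, and the median log2 fold change was -0.04 with the term and 1.20 without it. Ighg1, an IgG heavy chain, had 18.7, 8.00 and 40.8 CPM at day 22 and 426, 313 and 280 CPM at day 43, and Ighg2c 14.1, 18.5 and 10.8 CPM and 247, 395 and 74.8 CPM, with no overlap for either. The IgA heavy chain Igha was higher in level and overlapped: 2772, 3685 and 2163 CPM against 3706, 7121 and 3359 CPM. The joining chain Jchain had 1263, 1917 and 2416 CPM at day 22 and 5061, 9838 and 2477 CPM at day 43. Replicate 2 of day 43, which had the highest ribosomal percentage, was also the highest for Igha, Jchain and Ighg2c. Ighg1 and Ighg2c passed on the 6 samples alone, and neither passed with the term (adjusted P = 0.957 and 0.997). Cd79a, a part of the B cell receptor, had 79.8, 143 and 119 CPM at day 22 and 123, 181 and 94.0 CPM at day 43, and the 19 B cell genes had a median of -0.33 with the term and 0.08 without it. Gzmb, the cytotoxic granzyme B, had 33.4, 34.0 and 46.3 CPM at day 22 and 15.8, 15.5 and 7.2 CPM at day 43, and Trdc, the constant region of the gamma-delta T cell receptor, 1.98, 1.46 and 2.54 CPM and 17.8, 9.20 and 8.03 CPM, neither of which passed among 26 T cell genes.

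Goblet cell genes were lower at day 43 in most cases, again without a gene that passed. Of 21, 20 had a log2 fold change below 0, with a median of -0.52 (-0.59 without the ribosomal term). Of the 21, 11 were lower without overlap, where 14.1% of all genes were. Retnlb, the antibacterial resistin-like molecule beta of goblet cells, had 336, 1092 and 1033 CPM at day 22 and 80.5, 260 and 34.6 CPM at day 43 (adjusted P = 0.261). Ang4, an antimicrobial ribonuclease, had 86.9, 1119 and 762 CPM at day 22 and 17.4, 74.0 and 23.9 CPM at day 43 (adjusted P = 0.323). Clca1, which processes secreted mucus, had 1370, 4120 and 2907 CPM at day 22 and 219, 573 and 353 CPM at day 43. For all 3 genes the days did not overlap. The mucin Muc2 itself overlapped, at 108, 250 and 242 CPM against 123, 173 and 61.4 CPM. In the controls Retnlb was at 0 to 0.197 CPM and Ang4 at 0.0497 to 1.39 CPM, so that both stayed above the controls at day 43. Reg3b, an antibacterial lectin of inflamed epithelium, had 7.06, 7.03 and 6.48 CPM at day 22 and 558, 386 and 2.94 CPM at day 43, with replicate 3 apart from the other two.

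Of 32 genes of colonocyte absorption, 20 had a log2 fold change below 0 and none passed, with a median of -0.34. Lower without overlap were 10 of the 32, against 14.1% of all genes. Atp12a, the colonic proton-potassium pump, had 705, 400 and 660 CPM at day 22 and 174, 158 and 120 CPM at day 43 (adjusted P = 0.870). Slc26a3, the chloride-bicarbonate exchanger of the surface epithelium, had 193, 132 and 208 CPM and 60.3, 91.9 and 102 CPM. Both stood below the control range at day 43, which was 381 to 1270 CPM for Atp12a and 493 to 1012 CPM for Slc26a3. At day 22 Slc26a3 already lay below its control range, while Atp12a lay within its own. Genes of stem cells and Wnt signalling did not move as a group: the 22 members had a median of -0.25, Lgr5, a marker of crypt base stem cells, had 1.39, 3.95 and 2.4 CPM and 5.82, 1.96 and 0.784 CPM, and Olfm4 0.748, 0.830 and 1.63 CPM and 8.23, 2.71 and 1.96 CPM. Lrig1, a negative regulator of EGF receptors, had 92.2, 106 and 86.0 CPM at day 22 and 54.9, 65.1 and 58.1 CPM at day 43, and Cd44, a surface glycoprotein, 65.3, 69.8 and 72.1 CPM and 153, 92.9 and 115 CPM. Areg, the EGF receptor ligand amphiregulin, had 35.2, 15.2 and 49.3 CPM and 58.2, 22.6 and 30.3 CPM, an overlap of the days. Among 18 genes known from intestinal tumours with active Wnt signalling, the tight junction gene Cldn1 had 3.85, 4.49 and 4.44 CPM and 28.9, 8.73 and 29.5 CPM (adjusted P = 0.176), and Wnt10a 0.107, 0.146 and 0.227 CPM and 5.05, 0.0676 and 8.91 CPM.

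No LXR target passed. Of 17, 10 had a log2 fold change above 0 and 7 below, and the median was 0.13. Abca1, the cholesterol efflux transporter, had 105, 136 and 91.2 CPM at day 22 and 132, 118 and 111 CPM at day 43, a log2 fold change of 0.21 (SE 0.36, adjusted P = 0.997). Abcg1, its partner in efflux, had 112, 111 and 85.7 CPM and 110, 71.4 and 75.7 CPM (log2 fold change -0.01, SE 0.36), and Srebf1, the regulator of fatty acid synthesis, 320, 345 and 277 CPM and 356, 259 and 332 CPM (log2 fold change 0.13, SE 0.25). These 3 overlapped between the days. Apoe, an apolipoprotein that macrophages also make, had 1088, 1087 and 684 CPM at day 22 and 1897, 1973 and 1872 CPM at day 43. It did not pass (log2 fold change 1.11, SE 0.63, adjusted P = 0.967). Of the 17, Apoe and Apoc1 were higher at day 43 without overlap and Lpcat3 and Abcc3 lower. Over all genes 12.1% were higher and 14.1% lower without overlap, so that the list did not stand out. Cyp27a1, which makes the LXR ligand 27-hydroxycholesterol, had 15.6, 15 and 14.1 CPM and 20.9, 26.3 and 21.2 CPM (log2 fold change 0.62, SE 0.49, adjusted P = 0.997), without overlap.

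Genes of cholesterol synthesis pointed down together: 24 of 25 had a log2 fold change below 0, but none passed. Of the 25, 12 were lower at day 43 without overlap, where 14.1% of all genes were. The median was -0.34, alike with and without the ribosomal term. Lss, lanosterol synthase, had 47.4, 44.9 and 43.4 CPM at day 22 and 23.6, 19.7 and 25.3 CPM at day 43 (adjusted P = 0.986). Hmgcs1, an early enzyme of the pathway, had 216, 202 and 190 CPM and 133, 105 and 137 CPM. In both the day 43 samples lay below all day 22 samples. Of 16 genes of fatty acid synthesis, 8 were lower without overlap (14.1% of all genes were), with a median of -0.27. Acaca, the first enzyme of the pathway, had 45.3, 50.2 and 32.8 CPM and 23.2, 22.3 and 28.0 CPM.

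In the test with the ribosomal term the interferon-stimulated genes had the lowest median of the 42 lists, -1.01, and without the term their median was -0.69. Of 39, 38 had a log2 fold change below 0 and none passed. Of the 39, 14 were lower at day 43 without overlap, where 14.1% of all genes were. Gbp7, a guanylate-binding protein, had 85.6, 63.1 and 90.0 CPM at day 22 and 39.0, 48.2 and 20.7 CPM at day 43 (adjusted P = 0.669). Tap1, the peptide transporter of antigen presentation, had 245, 228 and 236 CPM and 158, 134 and 72.0 CPM, and Igtp, an interferon-induced GTPase, 248, 186 and 242 CPM and 98.6, 84.8 and 33.0 CPM. Replicate 3 was the lowest day 43 sample for each. Irf1 overlapped at 378, 273 and 506 CPM and 277, 232 and 126 CPM. Ciita, the switch of MHC class II genes, had 65.7, 78.5 and 60.3 CPM and 44.1, 47.3 and 25 CPM, while the 12 MHC class II genes had a median of -0.50 with the ribosomal term and 0.05 without it. Among cell cycle genes, 30 of 31 had a log2 fold change below 0, with a median of -0.60 (-0.39 without the term). Of the 31, 15 were lower without overlap, against 14.1% of all genes. The proliferation marker Mki67 had 60.8, 89.1 and 58.3 CPM at day 22 and 31.9, 32.6 and 30.9 CPM at day 43 (adjusted P = 0.734), below the 46.4 to 65.0 CPM of the controls. E2f1, which drives entry into S phase, had 9.73, 13.2 and 10.9 CPM and 5.29, 7.03 and 7.30 CPM (adjusted P = 0.702).

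**Figure D3:**
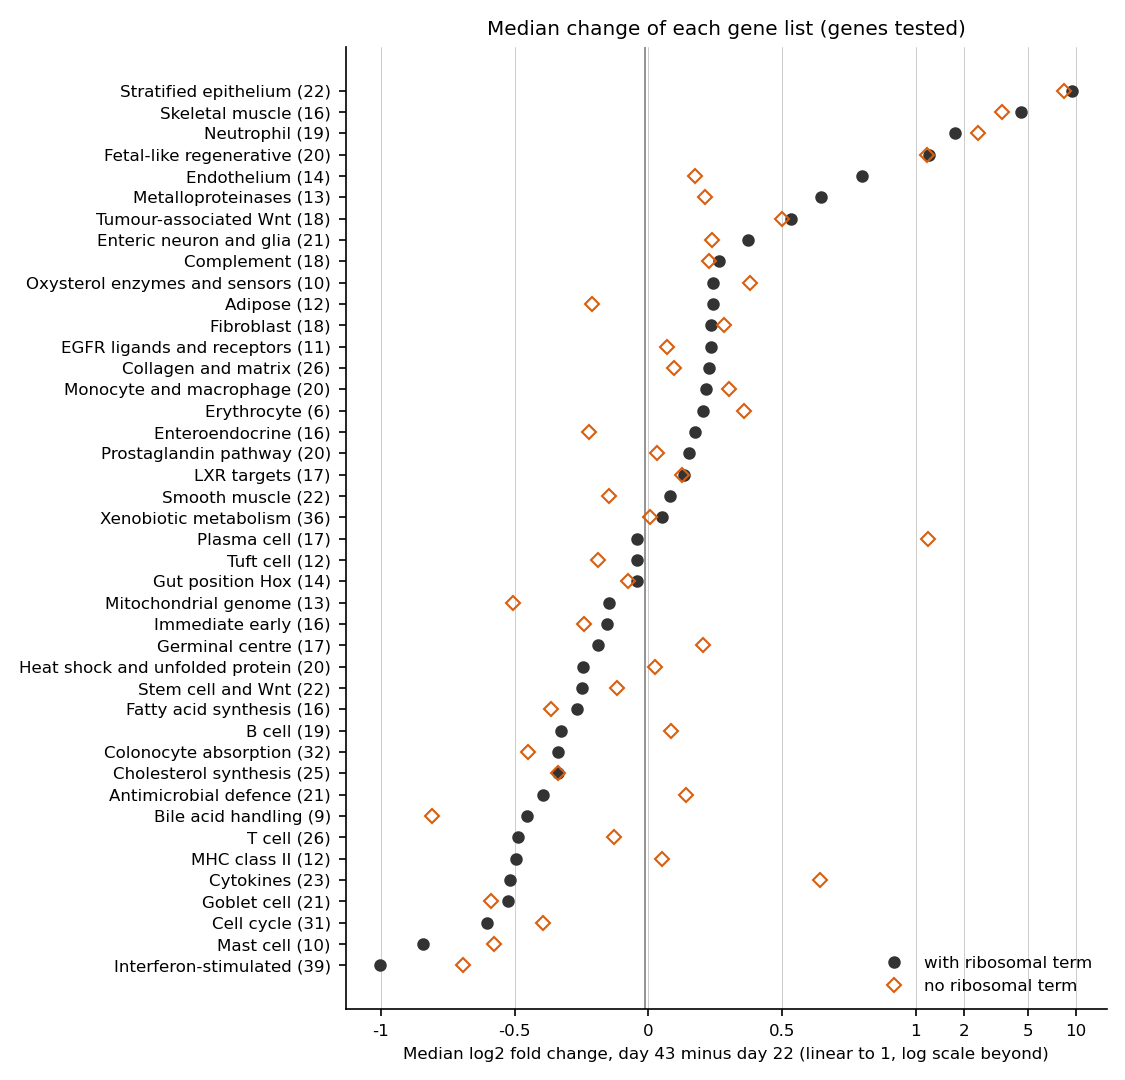
Median log2 fold change of each of the 42 gene lists (horizontal, linear between -1 and 1 and logarithmic beyond), with the number of genes tested in brackets. Filled points come from the test with the ribosomal percentage and open diamonds from the test without it, and the grey line is the median of all genes tested. Stratified epithelium lies at 9.46 and interferon-stimulated genes at -1.01, while plasma cell, cytokine, antimicrobial and MHC class II lists lie on opposite sides of 0 in the 2 tests.

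No member of the endothelial, matrix or smooth muscle lists passed. All 14 endothelial genes had a log2 fold change above 0 (median 0.80, or 0.18 without the ribosomal term), and none passed. Of the 14, 4 were higher without overlap, where 12.1% of all genes were. Cldn5, the endothelial claudin, had 16.6, 12.7 and 13.8 CPM and 28.8, 38.7 and 48.2 CPM (adjusted P = 0.559). Of 26 collagen and matrix genes, 23 were above 0 with a median of 0.23, and Lox, which crosslinks collagen, had 14.9, 6.69 and 9.79 CPM and 41.5, 51.9 and 23.1 CPM (adjusted P = 0.857). The smooth muscle list had a median of 0.08, and Acta2 had 1105, 956 and 1120 CPM and 733, 649 and 1548 CPM, with replicate 3 the highest. The homeobox genes that mark position along the gut had a median of -0.04 over 14 genes. Cyp2c55, a cytochrome P450 of the colon, had 0.160, 0 and 0.227 CPM at day 22 and 0.764, 0.744 and 4.36 CPM at day 43 against 11.8 to 46.0 CPM in the controls (adjusted P = 0.0578), and Gsta4, a glutathione transferase, 16.3, 12.8 and 13.5 CPM and 154, 32.7 and 176 CPM (adjusted P = 0.0602).

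The fold changes varied with transcript length in the fit without the ribosomal term. In that fit 45 genes passed (0.264%), 39 higher (0.229%) and 6 lower (0.0352%), of which 23 were among the 25. The median log2 fold change there fell from 0.452 in the class of genes with the shortest transcripts of 5 classes of like size (median effective length 675 bases) to -0.306 in the class with the longest (4865 bases). With the term the medians of the 5 length classes lay between -0.0562 and 0.031. The mitochondrial share of counts was 8.43% ± 1.19 at day 22 and 5.89% ± 1.57 at day 43 (SD, n = 3, exact permutation P = 0.1, the smallest possible). The part of RNA quality in the lists whose medians differ between the 2 fits was not tested. For the stratified epithelium list the medians were 9.46 with the term, 8.43 without it and 8.61 with the RNA integrity number in its place.

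**Figure D4:**
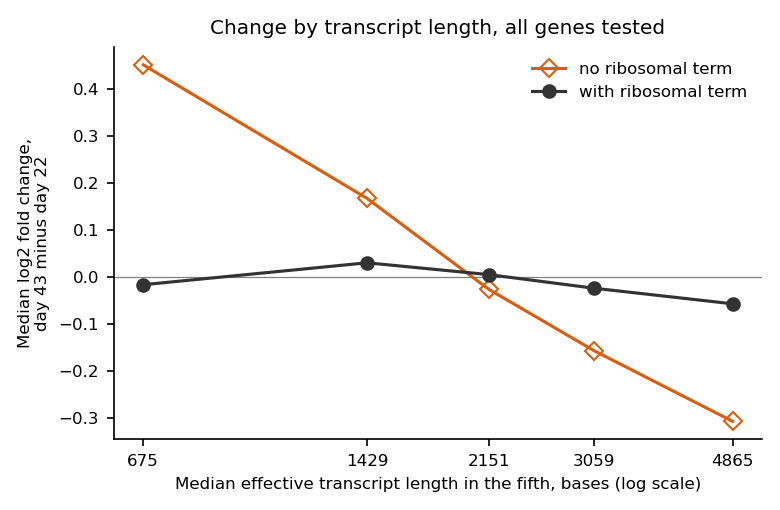
Median log2 fold change between day 43 and day 22 (vertical) in 5 classes of the genes tested by effective transcript length (horizontal, bases, log scale). Without the ribosomal term (open diamonds) the median falls from 0.452 for the shortest to -0.306 for the longest transcripts, and with the term (filled points) it stays between -0.0562 and 0.031.

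The standard diet was sampled at the same days from cage A, and its day 43 replicate 1 had an RNA integrity number of 2.6. No gene passed for the difference of the day 43 minus day 22 change between the diets (0 of 17063, with 723 or 4.24% at an unadjusted P under 0.05, edgeR's quasi-likelihood test), while DESeq2 called 22 and limma voom 1. The log2 fold change of Krt14 was 9.93 (SE 1.75) on GW3965 and 7.59 (SE 2.21) on the standard diet, whose day 43 samples had 67.7 to 485 CPM (unadjusted P of the difference 0.250). Psca, at 59.4 to 263 CPM at day 43 of the standard diet, and Arg1, at 205 to 898 CPM, were likewise high there. Sptssb started from a higher level on the standard diet, 3.33 to 18.7 CPM at day 22, and reached 44.0 to 57.2 CPM at day 43 (unadjusted P of the difference 0.0219). Ccl24, lower at day 43 on GW3965, had 0.806 to 2.39 CPM at day 22 and 1.88 to 5.47 CPM at day 43 of the standard diet (unadjusted P of the difference 0.00609). Retnlb had 2.26 to 20.0 CPM at day 22 and 21.8 to 34.1 CPM at day 43 of the standard diet, against the 336 to 1092 CPM of day 22 on GW3965 (unadjusted P of the difference 0.00171). Cxcl9, an interferon-induced T cell chemokine, had 278, 173 and 255 CPM at day 22 and 128, 146 and 16.4 CPM at day 43 on GW3965, and 22.5 to 51.8 CPM and 83.3 to 211 CPM on the standard diet (unadjusted P of the difference 0.0127).

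The 3 genes of the smallest P for the difference were Slc17a4, Gm18537 and Mrps18c. Slc17a4, an anion transporter of intestinal epithelium, had 9.36, 7.52 and 9.74 CPM at day 22 and 17.6, 17.3 and 9.80 CPM at day 43 on GW3965, and 31.1 to 49.6 CPM and 8.67 to 12.7 CPM on the standard diet, so that the day 22 levels of the diets lay apart and the day 43 levels overlapped (unadjusted P = 1.07e-05). Gm18537 was at 0 in all 3 day 43 samples of the standard diet, and Mrps18c, a mitochondrial ribosomal protein, had 53.2, 55.6 and 97.3 CPM and 94.5, 150 and 59.0 CPM on GW3965 against 31.3 to 47.7 CPM and 119 to 183 CPM on the standard diet. Each diet had 1 cage at these days, so that diet and cage cannot be told apart.

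**Figure D5:**
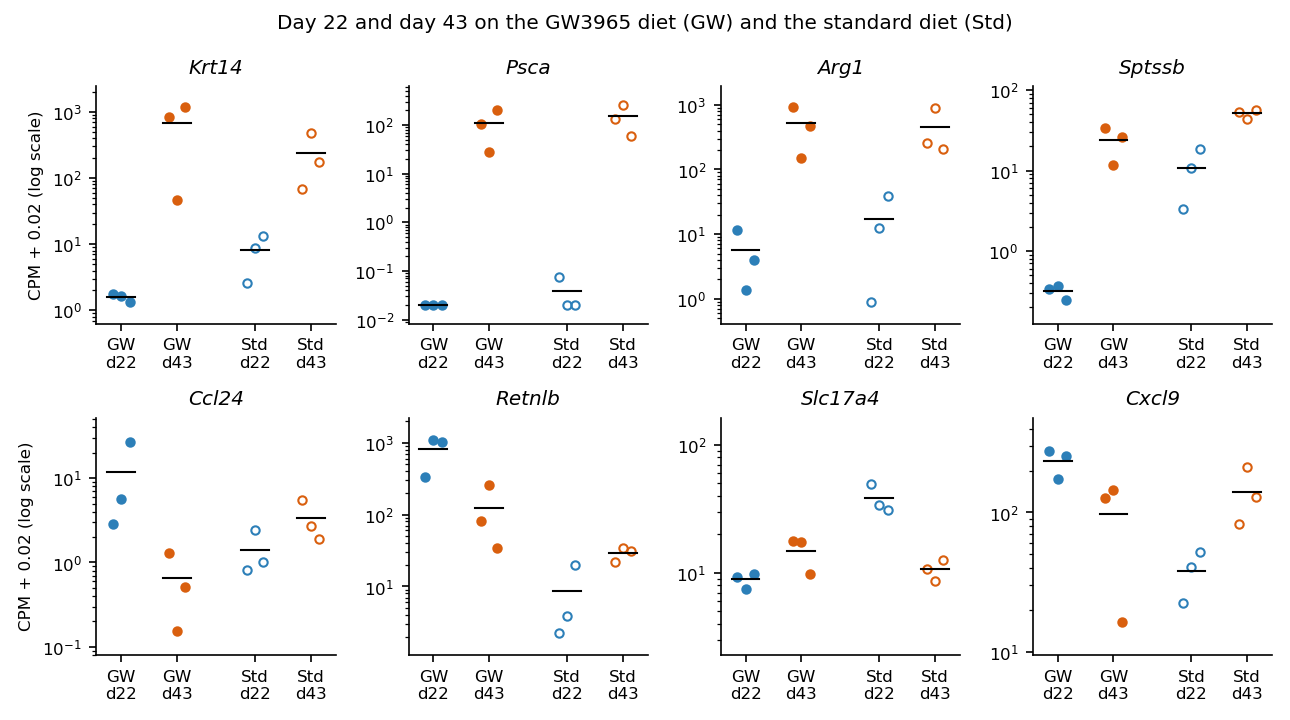
CPM plus 0.02 (vertical, log scale) of 8 genes at day 22 (blue) and day 43 (orange), with filled points for the 3 samples per day on the GW3965 diet and open points for the 3 per day on the standard diet; bars are means. Krt14, Psca and Arg1 are high at day 43 on both diets, while Ccl24, Retnlb and Cxcl9 have lower means at day 43 on GW3965 and higher means at day 43 on the standard diet.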

How the data were processed

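RNA-seq was made from polyA RNA of distal colon biopsies and sequenced as 150 bp paired-end reads. Per the labels the authors quantified transcripts with kallisto on GRCm38, and the deposited tables hold estimated counts and TPM values, scaled for transcript length and depth, for each transcript. The estimated counts of 119414 transcripts (116728 matched to a gene) were summed to 35975 genes and rounded to whole numbers. Unmatched transcripts held 0.615% to 0.999% of the counts of a sample. Genes were filtered on low counts, scaled by TMM and tested with edgeR 4.0.16 (R 4.3.3), a quasi-likelihood test over 8 groups with the ribosomal percentage as covariate and Benjamini-Hochberg adjustment over 17063 genes. Alternatives used limma 3.58.1 (voom) and DESeq2 1.42.0. Single values were compared by exact permutation tests in scipy 1.17.1. Intervals of count ratios (95%) and the floor of 3 counts cover counting error only. The members and the 42 gene lists (789 genes, 766 tested) were chosen with earlier results of these data known. Named genes were, in each direction, the 12 of the smallest P past the threshold whose days did not overlap with a mean of at least 1 CPM (or 5 given as values), up to 4 called or 2 uncalled members of each list, 8 genes always named (Abca1, Abcg1, Srebf1, Cyp27a1, Areg, Lgr5, Olfm4 and Cd79a) and the 3 of the smallest P for the diet difference. Other genes named in the text were chosen after their values were seen. Some genes that the rule names are not reported here, although they stay in the counts and medians.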

Additional observations from a re-analysis of the deposited data

Results flagged for a closer look

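In the 4 controls on the GW3965 diet without AOM or DSS, 1 sample stood far from the other 3 for 4 of the 20 genes examined, where chance sets apart about 1 in 20 groups. Control 22 days replicate 2 had 0.346 CPM of Trp63 (others 0.0441 to 0.0497 CPM) and 10.3 CPM of the stem cell marker Lgr5 (others 4.96 to 5.83 CPM). Control 22 days replicate 1 was at 0 for Aqp3 (others 0.221 to 0.260 CPM), and control 43 days replicate 1 was at 0 for Tmprss11b (others 0.0433 to 0.0497 CPM). The values of Trp63, Tmprss11b and Aqp3 are those of a few counts, and for Tmprss11b the sample had no count where each of the others had 1, so that the comparison has little meaning for these 3 genes.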

How the results depend on the processing

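The 25 genes that passed between day 43 and day 22 became 118 with DESeq2, 103 with the RNA integrity number in place of the ribosomal percentage, 45 without a ribosomal term, 52 on the 6 samples alone, and 0 with limma voom or on the 13 GW3965 samples alone. Leaving out 1 sample gave 0 to 0 genes, and without the control of conflicting label 0 passed. Without the ribosomal term, leaving out 1 of the 6 samples (chosen after seeing the data) gave 0 to 521 genes, the highest without day 43 replicate 3 and 50 without day 43 replicate 2. Of the list genes, 10 passed, against 26 with DESeq2, 21 with the RNA integrity number, and 0 with voom, on the 13 samples, without the control of conflicting label and in each fit that left out 1 sample (0 to 0). The difference of the diets gave 0 genes, 22 with DESeq2, 1 with voom and 0 to 12 with 1 sample left out, the highest without standard diet day 43 replicate 2. The cause of these shifts was not tested. Scaling by RLE (21 genes), no filter (35) and a filter of 1 CPM (24) stayed within 1.5 times the count. No called gene reversed its direction in the alternatives run. Of 139 genes that were followed singly and did not pass, 33 passed in at least 1 alternative and 36 changed sign in at least 1 without passing.

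With a replicate block 0 genes, 0 list genes and 0 genes of the diet difference passed (691 genes at an unadjusted P under 0.05 for the days). The numbers do not pair the samples: same-numbered samples of the GW3965 days had correlations of 0.011, -0.097 and -0.301, and not every sample correlated best with its own number. With 3 samples a day, a difference that did not pass is not shown to be absent. Counts of 3 or fewer at day 22 leave the size of a ratio wide open to counting error.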

Other observations

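None of the genes of the remaining lists passed between day 43 and day 22 (edgeR's quasi-likelihood test), and their medians are values only. Above 0 lay metalloproteinases (median log2 fold change 0.65 over 13 genes, 0.21 without the ribosomal term), Wnt genes of tumours (0.53 over 18), enteric neuron and glia (0.37 over 21), complement (0.26 over 18), oxysterol enzymes and sensors (0.24 over 10, of which 5 were higher at day 43 without overlap), fibroblast (0.24 over 18), EGFR ligands and receptors (0.23 over 11) and erythrocyte genes (0.20 over 6). Bile acid handling had -0.45 over 9 genes, of which 5 were lower without overlap. Over all genes 12.1% were higher and 14.1% were lower without overlap. Fabp6, the bile acid carrier of enterocytes, had 64.7, 35.1 and 68.2 CPM at day 22 and 15.5, 19.5 and 23.6 CPM at day 43, with no overlap, and 1.43 to 4.46 CPM and 2.64 to 6.22 CPM on the standard diet (unadjusted P of the difference 0.00402, edgeR).

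Tuft cell genes (-0.04 over 12), immediate early genes (-0.15 over 16) and xenobiotic metabolism (0.05 over 36) had medians nearer to that of all genes. Mitochondrially encoded genes had a median of -0.15 over 13, and of -0.51 without the ribosomal term. Of the 13, 6 were lower at day 43 without overlap, where 14.1% of all genes were. T cell genes had a median of -0.49 over 26, of -0.13 without the ribosomal term and of 0.33 with the RNA integrity number in its place. The enteroendocrine (0.17 and -0.22 over 16), adipose (0.24 and -0.21 over 12), germinal centre (-0.19 and 0.20 over 17), cytokine (-0.52 and 0.64 over 23), antimicrobial (-0.39 and 0.14 over 21) and heat shock genes (-0.24 and 0.02 over 20) had medians of opposite sign with and without it.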
